A study of Mus musculus with 6 samples.

Results

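Glycogen is the branched glucose store that muscle fibers build up and draw on for contraction. Glycogen synthase adds glucose units to a growing chain and the branching enzyme makes the branches, while glycogen phosphorylase removes units and is switched on by phosphorylase kinase, a complex of alpha, beta and gamma subunits with calmodulin. Protein phosphatase 1 opposes this switch and is brought to the glycogen particle by targeting subunits. Several of these proteins have separate muscle, liver and brain genes, and muscle is known to move from the brain to the muscle form of phosphorylase as it matures.

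The 9 genes described here are those of the phosphorylases (*Pygm*, *Pygb*, *Pygl*), 2 subunits of phosphorylase kinase (*Phka1*, *Phkg1*), glycogen synthase (*Gys1*), the branching enzyme (*Gbe1*) and 2 targeting subunits of protein phosphatase 1 (*Ppp1r3a*, *Ppp1r3c*). They were chosen by symbol out of 56262 genes in the count table, and all 9 passed the filter on low counts. The RNA-seq compared 3 WT and 3 *SYISL* KO samples of fetal leg muscle at embryonic day 18.5. *SYISL* is a long noncoding RNA, and the question was how its loss affects fetal muscle. Parents had the same genotype as their fetuses, so effects of the genotype of the dam and of the fetus cannot be told apart, and neither the sex of the fetuses nor pooling is given. Nothing states that the samples came from separate litters, so p-values measure the spread between these samples.

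Each sample held 82054811 to 102233181 counts. No annotated gene carries the symbol *SYISL*, and the deletion was therefore not checked from the counts. A list of 10 myofiber genes (such as *Acta1*, *Ckm*, *Ttn*) served as muscle markers, and 8 of them were called higher and 0 lower in KO. Their summed level was 17587 to 19804 CPM (counts scaled to a common library size) in WT and 37616 to 45273 CPM in KO. Markers of other cells moved too, with 8 of 8 epidermal and 4 of 4 red blood cell genes called lower and 6 of 6 adipocyte and 3 of 5 macrophage genes called higher. Summed levels went from 15815 to 23766 CPM in WT to 674 to 782 CPM in KO for the epidermal genes, from 3214 to 3976 CPM to 471 to 544 CPM for the red blood cell genes, from 105 to 137 CPM to 339 to 402 CPM for the adipocyte genes, and from 187 to 201 CPM to 304 to 330 CPM for the macrophage genes. The liver list stayed between 0.690 and 3.71 CPM in all samples and the neutrophil list between 5.29 and 18.2 CPM. No marker in these lists was at 0 counts in every sample, but *Serpina1a* had 1 count in WT replicate 1 alone. Only 3 of the 6 liver genes passed the filter on low counts. Of the cartilage genes 3 of 5 were called lower and 1 higher, and of the neutrophil genes 2 of 5 were called higher (*Elane*, *Mpo*). Counts of these neutrophil genes were low, at 5 to 24 per sample for *Elane* and 10 to 76 for *Mpo*. The cartilage list ranged over 351 to 453 CPM (WT) and 306 to 311 CPM (KO), the endothelial list at 558 to 589 and 661 to 692 CPM, the fibroblast list at 18963 to 21550 and 22538 to 22858 CPM, and the glial list at 68.2 to 72.1 and 95.9 to 116 CPM. In WT, the mean epidermal sum (19095 CPM) was close to the mean myofiber sum (18904 CPM), so by these markers the WT samples were not muscle alone. The part of these marker shifts in the results below was not tested. In such bulk samples, fewer cells of a type and less RNA per cell cannot be told apart.

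In the KO samples, 6 of the 9 glycogen genes were called higher and 0 lower. The muscle phosphorylase *Pygm*, both muscle subunits of its kinase, the branching enzyme and both targeting subunits rose between 1.57-fold (*Phka1*) and 3.20-fold (*Phkg1*). The muscle synthase *Gys1* stood just under the fold threshold, and the brain and liver phosphorylases *Pygb* and *Pygl* were not distinguishable between genotypes. A gene was called at a Benjamini-Hochberg adjusted p under 0.05 from edgeR's quasi-likelihood test and a fold change over 1.5. Over all 22071 genes tested, 8.31% were called higher and 8.39% lower by this rule. The WT and KO values did not overlap for 7 of the 9 genes, where 55.9% of all genes tested had no overlap. The median log2 fold change of the 9 genes was 0.75, against -0.0041 over all genes tested. In all 6 called genes, replicate 2 was the lowest WT sample and replicate 1 the lowest KO sample, which were also the lowest samples of the myofiber sum in each genotype. Both also had the lowest share of Y-linked counts, 0.0034% in WT replicate 2 and 0.0037% in KO replicate 1. The other samples had 0.0088% to 0.0218%. With this share as a covariate, 6 members were still called higher, and the source of the pattern was not tested.

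**Figure D1:**
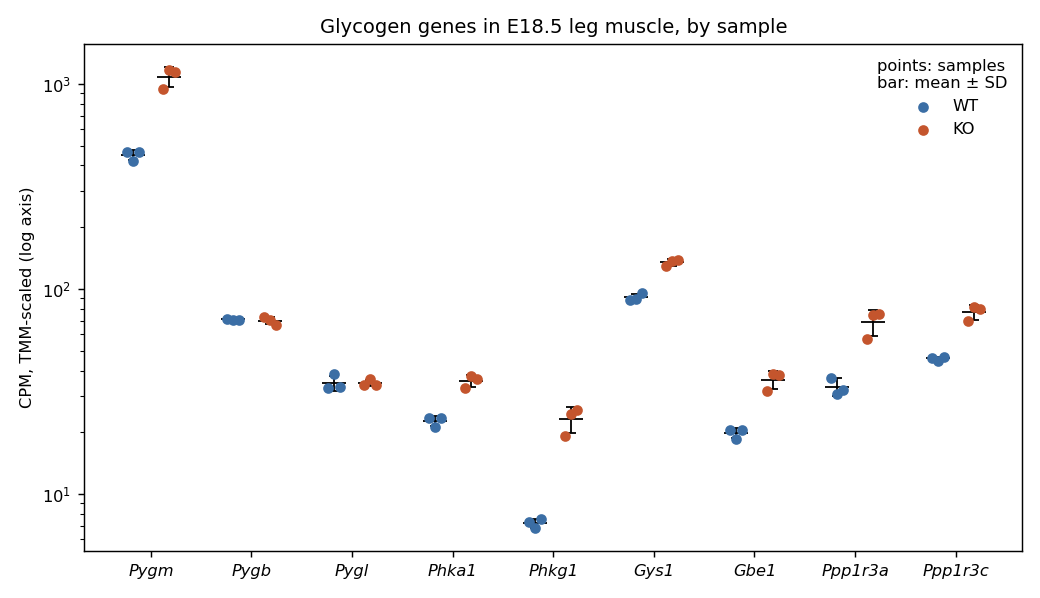
CPM of the 9 glycogen genes (log axis, TMM-scaled) in each WT (blue) and KO (orange) sample, with mean and SD as black bars (n = 3 each). *Pygm* is the most counted of the 9 genes, and WT and KO points overlap only for *Pygb* and *Pygl*.

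*Pygm* encodes the muscle phosphorylase, the enzyme missing in McArdle disease, and lies on the plus strand of chromosome 19 of mm10 (6384399 to 6398459, ENSMUSG00000032648.14). Its level was 467, 422 and 467 CPM in the WT samples and 942, 1165 and 1146 CPM in the KO samples. Every KO value was about double the WT values or more. The rise was 2.40-fold (log2 fold change 1.26, standard error 0.086, edgeR adjusted p = 3.05e-06). Of all genes tested, 6.95% had a log2 fold change of this size or larger in either direction.

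The other phosphorylase genes behaved differently from *Pygm*. *Pygb* (chromosome 2, 150786735 to 150831758, ENSMUSG00000033059.7), the brain isoform that fetal tissues also express, had 71.6, 70.9 and 70.4 CPM in WT and 72.5, 70.6 and 66.8 CPM in KO. The groups overlapped, and the log2 fold change was -0.019 with a 95% interval from -0.11 to 0.070 (edgeR adjusted p = 0.728). *Pygl* (chromosome 12, 70190811 to 70231488, ENSMUSG00000021069.17), the liver isoform, had 32.9, 38.3 and 33.2 CPM in WT and 34.2, 36.2 and 34.1 CPM in KO. WT replicate 2 was the highest of these. That sample had the highest epidermal and red blood cell sums and the lowest myofiber and adipocyte sums. The *Pygl* log2 fold change was 0.00073 with a 95% interval from -0.14 to 0.14 (edgeR adjusted p = 0.993). The intervals of both genes exclude a 1.5-fold change, and the sign of each changed under another scaling.

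The 3 phosphorylases catalyze the same step. Their mix in the RNA of the whole sample was computed within each library from counts per kb of exon. This scale is free of the scaling between libraries. *Pygm* made up 88.1%, 86.6% and 88.2% of the phosphorylase signal in WT and 93.6%, 94.8% and 94.98% in KO. Its share was thus dominant in both genotypes and higher in every KO sample, by 6.84 percentage points on average. The part of *Pygb* was 9.22% ± 0.457 in WT against 4.12% ± 0.608 in KO, and that of *Pygl* 3.16% ± 0.436 against 1.42% ± 0.141 (SD, n = 3 each). None of the 3 shares overlapped between genotypes (exact two-sided permutation test, p = 0.1 for each, the smallest that 3 samples against 3 allow). The 3 shares are parts of 1 whole, so these tests are not separate results. With *Pygb* and *Pygl* near level in CPM, their lower shares follow from the rise of *Pygm*.

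Phosphorylase kinase carries the calcium and hormone signal to phosphorylase. *Phkg1*, its muscle catalytic gamma subunit, lies on the minus strand of chromosome 5 (129863421 to 129898549, ENSMUSG00000025537.12) and showed the largest change of the 9 genes. It had 7.28, 6.84 and 7.53 CPM in WT and 19.3, 24.6 and 25.6 CPM in KO. Its lowest KO value was more than double its highest WT value. The rise was 3.20-fold (log2 fold change 1.68, standard error 0.10, edgeR adjusted p = 1.78e-06). Its exons share 630 bases with *Sumf2* on the opposite strand, and the strand setting of the counting is not given, so reads there cannot be assigned with certainty. *Sumf2* itself had 2211 to 2676 counts in WT and 1872 to 1968 in KO, the opposite direction.

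*Phka1* (chromosome X, 102513975 to 102644246, ENSMUSG00000034055.16), the muscle regulatory alpha subunit, had 23.4, 21.3 and 23.4 CPM in WT and 32.9, 37.7 and 36.4 CPM in KO. The groups did not overlap, and the rise was 1.57-fold (log2 fold change 0.65, standard error 0.062, edgeR adjusted p = 2.89e-05). With library size as the only scaling it fell just under the fold threshold (0.58).

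Shares among the sister subunits describe the RNA of the whole sample, not isoform use within muscle fibers. *Phkg2*, the liver gamma subunit, had 18.7, 19.9 and 18.3 CPM in WT and 17.9, 18.1 and 17.3 CPM in KO, and it did not pass the test (log2 fold change -0.094, edgeR adjusted p = 0.196). The share of *Phkg1* in both gamma genes per kb went from 19.3%, 17.4% and 20.2% in WT to 39.8%, 45.4% and 47.5% in KO. On this scale *Phkg2* was the larger part in every sample, but without length scaling the *Phkg1* share was 25.5% to 29.1% in WT and 51.8% to 59.6% in KO, so the order of the 2 genes in KO turned with the scale. *Phka2*, the liver alpha subunit, averaged 45.0 ± 1.37 CPM over the WT and 53.7 ± 0.372 CPM over the KO samples (SD) and passed the adjusted p but not the fold threshold (log2 fold change 0.26, edgeR adjusted p = 4.36e-04). The share of *Phka1* in both alpha genes went from 32.9% ± 1.31 to 39.1% ± 1.499 (SD, n = 3 each). The samples of the genotypes did not overlap in either share (exact two-sided permutation test, p = 0.1 for each). *Phkb*, the beta subunit with a single gene, averaged 47.2 ± 1.17 CPM over the WT and 67.3 ± 1.71 CPM over the KO samples (SD) and also passed only the adjusted p (log2 fold change 0.51, edgeR adjusted p = 5.48e-06).

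**Figure D2:**
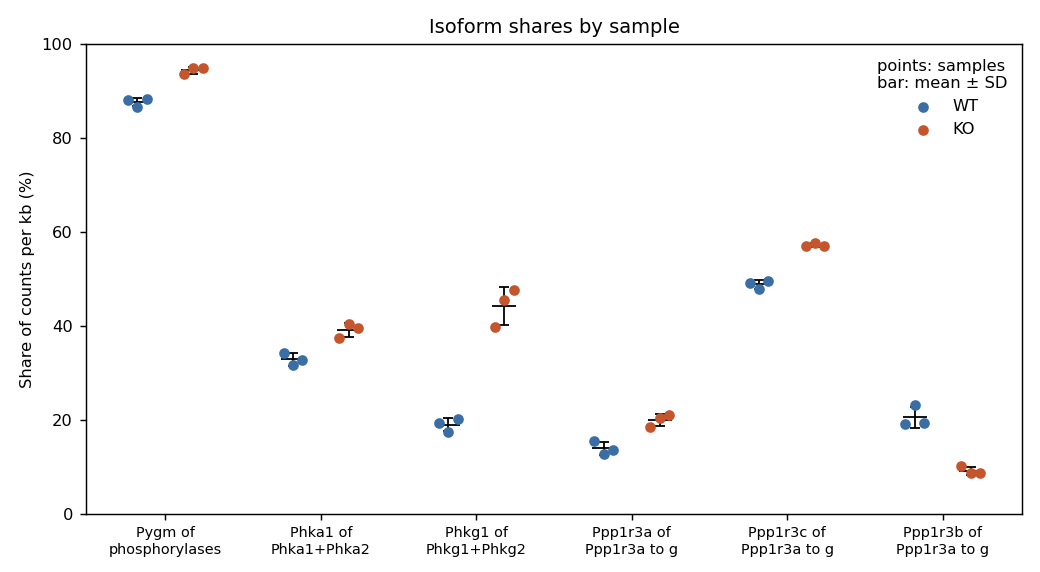
Share of each named gene in the counts per kb of its family (%), by sample, for WT (blue) and KO (orange), with mean and SD as black bars (n = 3 each). The *Phkg1* share was 17.4% to 20.2% in WT and 39.8% to 47.5% in KO, and the *Ppp1r3b* share is lower in every KO sample.

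On the synthesis side, the changes were smaller than that of *Pygm*. *Gys1* (chromosome 7, 45434844 to 45456619, ENSMUSG00000003865.16), the muscle synthase, had 88.5, 89.3 and 95.2 CPM in WT and 129, 137 and 139 CPM in KO. All KO values lay above all WT values, and the adjusted p passed, yet the ratio of 1.48 was under the fold threshold (log2 fold change 0.57, standard error 0.045, edgeR adjusted p = 8.41e-06). It passed that threshold with upper-quartile factors (0.63), without WT replicate 3 (0.60) and without KO replicate 1 (0.60). *Gys1* shares 310 bases of exon with *Ruvbl2* on the opposite strand, which had 3950 to 4857 counts in WT and 3737 to 3953 in KO. *Gys2*, the liver synthase, had 0 to 11 counts per sample and was not tested.

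*Gbe1* (chromosome 16, 70313949 to 70569716, ENSMUSG00000022707.16), the branching enzyme, had 20.4, 18.5 and 20.4 CPM in WT and 31.8, 38.3 and 38.2 CPM in KO. The rise was 1.83-fold without overlap (log2 fold change 0.87, standard error 0.078, edgeR adjusted p = 1.89e-05). Ratios within each library set these enzymes against each other. The ratio of *Pygm* to *Gys1* per kb, breakdown over synthesis, had a geometric mean of 7.39 in WT and 11.9 in KO, a difference of 0.69 on the log2 scale. The ratio of *Gbe1* to *Gys1* had geometric means of 0.194 and 0.239, a difference of 0.30. Neither ratio overlapped between genotypes (exact two-sided permutation test, p = 0.1 for each).

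The targeting subunits bring protein phosphatase 1 to glycogen, where it activates the synthase. *Ppp1r3a* (chromosome 6, 14713977 to 14755274, ENSMUSG00000042717.5), the muscle form, had 37.0, 30.6 and 32.3 CPM in WT and 57.3, 74.3 and 75.1 CPM in KO. It rose 2.07-fold without overlap (log2 fold change 1.05, standard error 0.11, edgeR adjusted p = 4.00e-05). *Ppp1r3c* (chromosome 19, 36731731 to 36736653, ENSMUSG00000067279.3), also known as PTG and found in several tissues, had 46.2, 44.7 and 46.5 CPM in WT and 69.4, 81.9 and 79.9 CPM in KO. It rose 1.68-fold without overlap (log2 fold change 0.75, standard error 0.060, edgeR adjusted p = 8.83e-06). The log2 ratio of *Ppp1r3a* to *Ppp1r3c* per kb was higher in KO by 0.30, with no overlap between genotypes (exact two-sided permutation test, p = 0.1).

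Another gene of this family went the other way. *Ppp1r3b*, best known as the targeting subunit of liver, had 41.0, 49.2 and 41.4 CPM in WT and 28.2, 27.8 and 27.5 CPM in KO. It fell by 0.65 on the log2 scale (standard error 0.068, edgeR adjusted p = 4.98e-05), and its 3 KO values were close together. WT replicate 2 was its highest sample, and without that replicate its fall was under the fold threshold (-0.57). That sample had the highest epidermal and red blood cell sums and the lowest myofiber and adipocyte sums. Which of these goes with the *Ppp1r3b* value was not tested. Among the 7 targeting subunits per kb, *Ppp1r3b* held 19.1%, 23.1% and 19.4% in WT but 10.2%, 8.58% and 8.59% in KO, a share computed after its values were seen. Per kb, *Ppp1r3c* took the largest share in both genotypes, 48.9% ± 0.949 in WT and 57.2% ± 0.409 in KO (SD, n = 3 each). Without length scaling *Ppp1r3b* was above it in WT replicate 2, at 34.7% against 31.5%.

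The wider pathway was described with a list of 23 other genes of glycogen synthesis, breakdown and control, of which 22 were tested. Of these, 5 were called higher, 1 was called lower (*Ppp1r3b*) and 16 were not called, against the 8.31% and 8.39% over all genes. The median log2 fold change of the list was 0.26. *Pgm1*, the phosphoglucomutase that links glucose 1-phosphate to glucose 6-phosphate, went from 125 ± 8.62 to 252 ± 25.0 CPM (SD, n = 3 each; log2 fold change 1.01, edgeR adjusted p = 6.38e-06). *Stbd1*, a glycogen-binding protein linked to its delivery to lysosomes, went from 125 ± 8.14 to 235 ± 23.4 CPM (log2 fold change 0.90, edgeR adjusted p = 1.15e-05). *Epm2a*, which encodes the glycogen phosphatase laforin, went from 7.16 ± 0.315 to 13.3 ± 1.66 CPM (log2 fold change 0.89, edgeR adjusted p = 5.33e-05). *Ppp1r3g* was called as well, but had only 24 to 60 counts per sample, and its adjusted p was 0.0675 with DESeq2 and, with edgeR, 0.0655 without WT replicate 2, 0.0559 without KO replicate 1 and 0.0629 without KO replicate 2. Without the fold threshold, 11 of the 22 genes were higher and 1 lower, where 21.9% and 23.1% of all genes tested were. The primer protein glycogenin *Gyg* (0.55) and the UDP-glucose pyrophosphorylase *Ugp2* (0.57) were among these 11 without passing 1.5-fold.

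**Figure D3:**
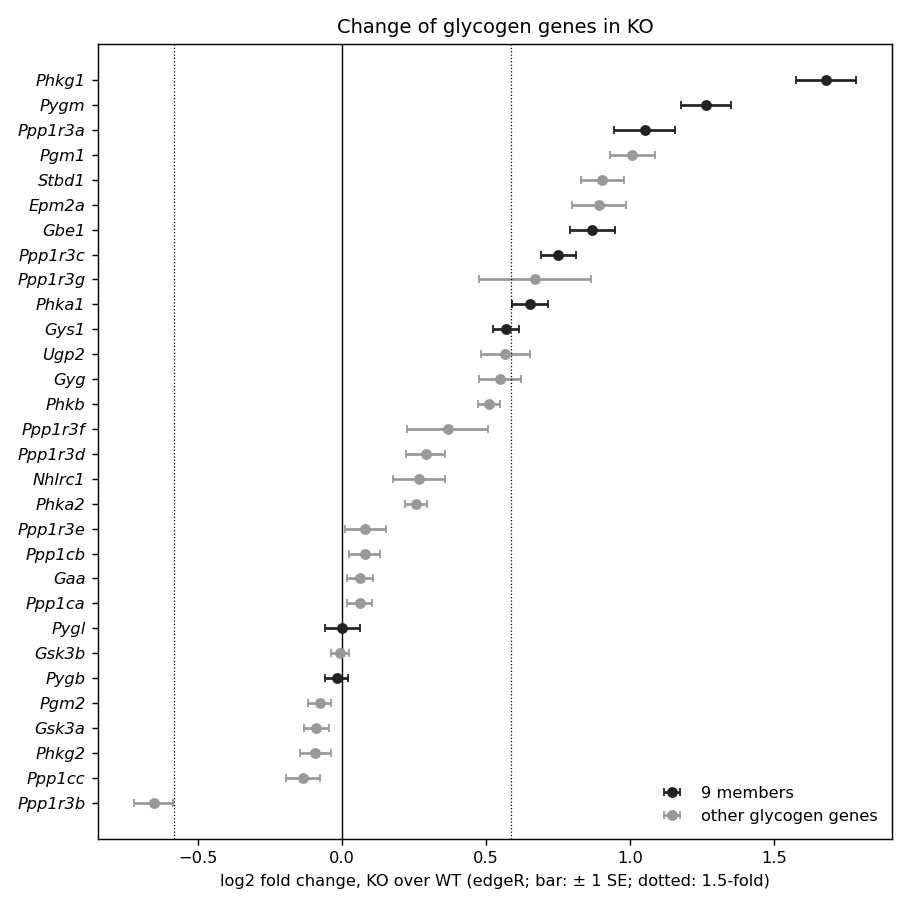
Log2 fold change of KO over WT from edgeR for the 9 glycogen genes (black) and other glycogen genes tested (grey), with bars of 1 standard error and dotted lines at 1.5-fold. *Phkg1*, *Pygm* and *Ppp1r3a* have the highest values, and *Ppp1r3b* alone lies below the lower dotted line.

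Compared per kb of exon, *Pygm* was far above the other members in level. The WT order ran from *Pygm* (140 CPM per kb) over *Gys1* (19.0), *Ppp1r3c* (16.8), *Pygb* (14.8), *Pygl* (5.05), *Ppp1r3a* (4.78), *Gbe1* (3.70) and *Phka1* (3.63) to *Phkg1* (1.11). Neighbours in this order overlapped for *Pygl* and *Ppp1r3a* and for *Gbe1* and *Phka1*. In KO, *Pygm* was at 337 CPM per kb and *Phkg1* was still the lowest at 3.55 CPM per kb. *Pygl*, at 5.05 CPM per kb, now stood below *Ppp1r3a* (9.89), *Gbe1* (6.75) and *Phka1* (5.70). *Ppp1r3c* (28.3) and *Gys1* (28.2) overlapped in KO, as did *Gbe1* and *Phka1*. Lengths are unions of all annotated exons, which lowers the level of genes with many alternative exons.

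Since the myofiber genes moved with genotype, each member was also set against their summed counts in the same library. On this scale *Phkg1* was higher in KO by 0.50 on the log2 scale, from -11.41, -11.33 and -11.33 in WT to -10.93, -10.84 and -10.79 in KO. *Pygm* differed by 0.087, with values of -5.41 to -5.37 in WT and -5.32 to -5.28 in KO, the smallest difference of the 9 members. The other 7 members were lower relative to that sum in KO, *Ppp1r3a* by -0.13, *Gbe1* by -0.31, *Ppp1r3c* by -0.42, *Phka1* by -0.52, *Gys1* by -0.60, *Pygl* by -1.17 and *Pygb* by -1.19. For each of the 9 members the genotypes did not overlap (exact two-sided permutation test, p = 0.1 for each). The sum itself did not overlap between genotypes, so genes with near-equal CPM, such as *Pygb* and *Pygl*, also separated on this scale. The share of all genes without overlap on this scale was not computed, so this count says little about the members. The *Gbe1* ratios of the KO samples lay within -10.21 to -10.20. *Acta1* and *Myh8* made up most of the myofiber sum in KO, with means of 12491 and 14160 of 42670 CPM. Their log2 fold changes, 1.47 and 1.59, were the highest of the list. Those of the other myofiber genes ran from -0.040 (*Myh3*) to 1.38 (*Tnnt3*), so the sum does not stand for myofiber genes in general. The reference was also changed from the sum to the median log2 count of the 10 myofiber genes in each library. That median rests on the genes of middle abundance. With it, the small difference of *Pygm* changed sign (-0.026). By edgeR, the median log2 fold change of the 10 genes was 0.999, against 1.26 for *Pygm*.

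**Figure D4:**
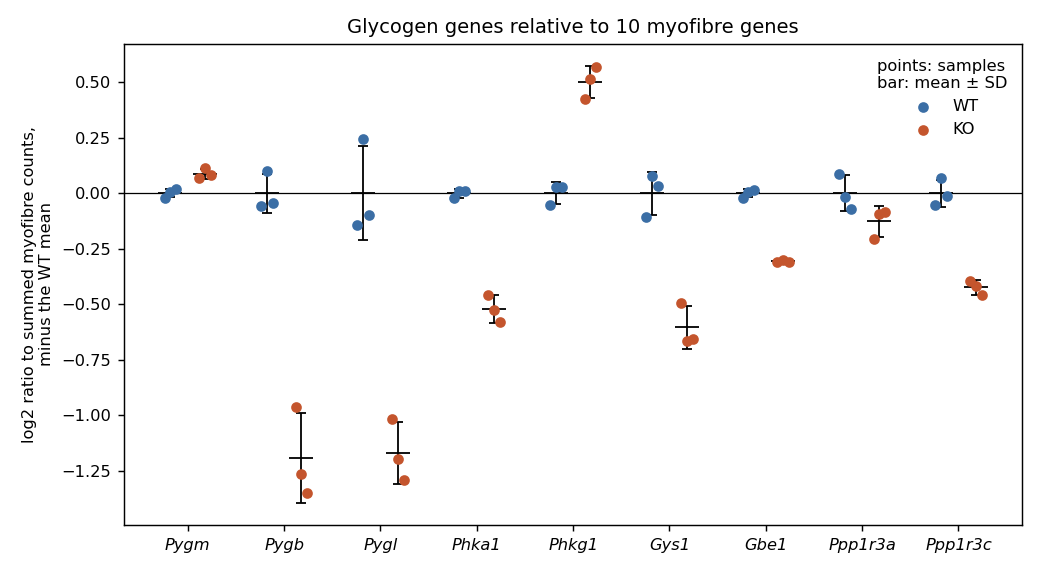
Log2 ratio of each glycogen gene to the summed counts of 10 myofiber genes in the same library, minus the WT mean, for WT (blue) and KO (orange) samples, with mean and SD as black bars (n = 3 each). *Phkg1* lies above 0 in all KO samples, and *Pygb* and *Pygl* lie furthest below 0.

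The promoters were searched for short motifs, and a link between motifs and the changes was not tested. The 250 bases before the RefSeq start (GRCm38.p6) were taken for all 9 genes and searched on both strands for the E-box CANNTG, the MEF2 site, the SRF CArG box, the TATA sequence TATAAA and the GC box GGGCGG. E-boxes were in 7 of the 9 promoters, near the share of 66.2% over 32851 promoters. Only *Pygb* and *Pygl* had none, and *Gys1*, also not called, had 1. GC boxes were in 3 (*Pygl*, *Phka1*, *Gys1*; 32.7% of all promoters), and a MEF2 match was in *Ppp1r3a* alone (2.92% of all promoters), where it overlaps a TATAAA match. TATAAA was in *Ppp1r3a* alone (12.4% of all promoters), and no CArG box was found (1.47% of all promoters). A match describes letters, not a bound site. The 3 genes with a rise over 2-fold and the uncalled *Pygb* are printed 5′ to 3′ on the gene's strand. Capitals mark these motifs, E-boxes unless said otherwise. In *Ppp1r3a*, another TATAAA starts 149 bases and the MEF2 match 100 bases before the start, and the *Phkg1* E-boxes 133 and 131 bases before the start overlap each other.
*Pygm* promoter, chr19:6384158-6384407, plus strand: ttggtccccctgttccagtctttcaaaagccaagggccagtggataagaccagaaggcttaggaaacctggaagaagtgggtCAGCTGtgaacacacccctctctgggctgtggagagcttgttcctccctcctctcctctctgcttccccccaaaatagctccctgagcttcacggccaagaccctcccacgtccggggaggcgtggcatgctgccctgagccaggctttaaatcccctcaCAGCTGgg
*Phkg1* promoter, chr5:129879089-129879338, minus strand: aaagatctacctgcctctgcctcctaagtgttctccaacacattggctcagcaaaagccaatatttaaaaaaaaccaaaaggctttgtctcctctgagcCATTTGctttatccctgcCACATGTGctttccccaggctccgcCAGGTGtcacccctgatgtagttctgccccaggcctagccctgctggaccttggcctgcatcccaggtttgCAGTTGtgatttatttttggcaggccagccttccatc
*Ppp1r3a* promoter, chr6:14755275-14755524, minus strand: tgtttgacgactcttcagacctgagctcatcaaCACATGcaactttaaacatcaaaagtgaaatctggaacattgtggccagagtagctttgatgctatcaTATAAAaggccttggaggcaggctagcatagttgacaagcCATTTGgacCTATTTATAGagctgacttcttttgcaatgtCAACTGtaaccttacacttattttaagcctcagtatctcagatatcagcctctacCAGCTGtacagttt
*Pygb* promoter, chr2:150786546-150786795, plus strand: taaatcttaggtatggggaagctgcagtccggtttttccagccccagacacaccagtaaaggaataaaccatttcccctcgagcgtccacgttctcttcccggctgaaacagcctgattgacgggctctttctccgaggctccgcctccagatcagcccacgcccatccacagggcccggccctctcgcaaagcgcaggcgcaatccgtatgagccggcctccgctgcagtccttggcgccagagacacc

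These windows also differed in CpG number, a feature that was looked at after the values were known. *Phkg1* and *Ppp1r3a* held 1 CpG each, as few as 18.8% of all promoters, and *Pygm* held 4, as few as 44.4%. The other 6 members held 9 (*Gbe1*), 11 (*Gys1*), 17 (*Pygb*), 19 (*Phka1*), 20 (*Pygl*) and 20 (*Ppp1r3c*). In the same order, 62.2%, 66.5%, 78.3%, 82.1%, 83.7% and 83.7% of all promoters held as few or fewer. Whether CpG number goes with the changes was not tested. For *Pygl* and *Phkg1* the GENCODE gene begins far upstream of the RefSeq start used here, so these windows show 1 of several annotated starts. For *Pygm*, *Pygb* and *Ppp1r3c* the GENCODE gene begins inside the window. The *Pygm* E-box 8 bases before the RefSeq start thus lies within the annotated gene.

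The genes most like a member were those with the smallest root-mean-square difference in log2 CPM over the 6 samples, each gene centred on its own mean, among 12362 genes with a mean of at least 5 CPM. For *Pygm* these were *Abhd18* (0.028), *Mafa* (0.038) and *Pgam2* (0.041). *Pgam2*, the muscle phosphoglycerate mutase of glycolysis, averaged 235 CPM over the WT and 565 CPM over the KO samples (log2 fold change 1.27). For *Gys1* they were *Tspan15* (0.011), *Aatk* (0.018) and *Grina* (0.021). For *Pygb* they were *Myd88* (0.011), *Safb* (0.014) and *Saal1* (0.015), and for *Pygl* they included *Tada3* (0.024) and *Eml2* (0.025). With 2 genotypes and 3 samples each, this measure mainly matches genes of the same fold change.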

How the data were processed

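The authors deposited raw counts per gene, as whole numbers without normalization. According to the methods and the submitters' processing notes, reads were trimmed with Trim Galore (0.6.6), mapped to mm10 with HISAT2 (2.2.1) and counted with featureCounts (2.0.1). The strand setting, the annotation and the counting of reads or pairs are not given in the sources used here, so reads of overlapping genes are uncertain. Symbols, positions and exon lengths came from GENCODE M21 (GRCm38, the same assembly), where 55227 of 56262 gene IDs were found. Counts were analysed in R (4.3.3) with edgeR (4.0.16), its filterByExpr filter, TMM factors and its quasi-likelihood test on genotype, adjusted over 22071 genes. Shares and ratios used exact two-sided permutation tests in SciPy (1.17.1), and intervals of fold changes are at 95%. Alternatives were RLE, upper-quartile and library-size scaling, DESeq2 (1.42.0), limma-voom (3.58.1), other filters and thresholds, a replicate block, the share of Y-linked counts, no length scaling and leaving out each sample. Only the edgeR calls were checked on simulated counts, with the same dispersion for every gene and changes larger than the fold threshold. The permutation tests were not checked in this way. Samples of 1 genotype differed beyond counting noise (mean chi-square per gene 5.22 to 36.2, where counting noise gives about 1), so none was treated as a library deposited again. This does not show that they are separate animals. The numbers in the sample names were not taken to pair samples.

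The members, lists and tests were chosen with earlier results of these data known. All members were named. Of the wider list, called genes and sister isoforms of members were named, with a few others chosen after their values were seen, and for 4 members the 3 most alike genes were named. Values of 1 called gene of the wider list and of 1 of the alike genes are not reported here. Promoter sequences were from RefSeq (GRCm38.p6), where all 9 members matched by symbol.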

Additional observations from a re-analysis of the deposited data

How the results depend on the processing

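Of 135 values of the 9 members under the alternatives, 122 kept their direction and their side of the threshold, 1 no longer passed it, 3 newly passed it and 9 changed sign, all 9 of *Pygb* or *Pygl*, whose changes were near 0. *Pygb* changed sign with upper-quartile factors (0.049) and over the leave-one-out fits (-0.040 to 0.020). *Pygl* did so with library size only (-0.067), no filter (-0.0019), at least 10 counts in every sample (-0.0011) and the Y-linked share (-0.040), and ranged from -0.038 to 0.072 when 1 sample was left out. In the wider list, *Gaa* (-0.0074) and *Ppp1ca* (-0.0085) with library size only and *Gsk3b* (0.060) with upper-quartile factors changed sign. A fold change over 2 left 3 of the 6 higher members, and 1 higher and 0 lower genes of the wider list, while no fold threshold gave 11 higher, against 5. Leaving out 1 sample gave 6 to 7 higher members, and 4 to 6 higher and 0 to 1 lower wider genes. The lower wider gene was lost without WT replicate 2. The cause was not tested. Without length scaling the change in share was 10.1 percentage points for *Pygm*, -6.80 for *Pygb*, -3.32 for *Pygl* and 28.8 for *Phkg1*. The median log2 count of the myofiber genes in each library was the other reference. With it, the differences were -0.026 for *Pygm* (reversed), -0.63 for *Phka1*, 0.39 for *Phkg1* and -0.72 for *Gys1*. For *Gbe1*, *Ppp1r3a* and *Ppp1r3c* they were -0.42, -0.24 and -0.54.

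Between same-numbered WT and KO samples, the deviations from the group means correlated at -0.20, -0.13 and 0.047, so the numbers were not taken to pair samples. With a replicate block, 6 members were called higher and 0 lower, and 5 wider genes higher and 1 lower, and no call of these genes changed. Depth did not limit the members, each with at least 565 counts in every sample, but 3 samples per genotype limit every exact test to p = 0.1 or more.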

Other observations

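Kinases and phosphatases that act on the glycogen enzymes but also serve many other pathways were not called. *Gsk3b*, a kinase that inhibits glycogen synthase, averaged 83.4 ± 0.482 CPM over the WT and 82.9 ± 0.683 CPM over the KO samples (SD). Its log2 fold change was -0.0077, with a 95% interval from -0.081 to 0.066. *Gsk3a* had a log2 fold change of -0.090, with an interval from -0.19 to 0.010. The catalytic subunits of protein phosphatase 1 had log2 fold changes of 0.060 (*Ppp1ca*), 0.077 (*Ppp1cb*) and -0.14 (*Ppp1cc*), and none passed the adjusted p of edgeR's quasi-likelihood test. *Gaa*, the lysosomal glucosidase that breaks down glycogen outside the phosphorylase pathway, had a log2 fold change of 0.061, with an interval from -0.041 to 0.16.

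The summed levels of the phosphorylase kinase subunits were set against each other after their values were seen. The gamma genes (*Phkg1* and *Phkg2*) per kb stood at 0.531 ± 0.028 times the alpha genes (*Phka1* and *Phka2*) in WT and 0.550 ± 0.018 times in KO (SD, n = 3 each), and the groups overlapped (exact two-sided permutation test, p = 0.5). This rests on the exon lengths used, since without length scaling, an alternative chosen after seeing the data, the ratio was 0.370 to 0.405 in WT and 0.431 to 0.475 in KO, with no overlap (exact two-sided permutation test, p = 0.1). The share of *Phkg1* within the gamma genes more than doubled over the same samples. The beta gene *Phkb* stood at 0.577 ± 0.020 times the alpha genes in WT and 0.623 ± 0.018 times in KO (exact two-sided permutation test, p = 0.1).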
